A study of Homo sapiens with 4 samples.

Results

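Receptor tyrosine kinases of interest in gastric cancer were taken as 10 genes, MET, MST1R, EGFR, ERBB2, ERBB3, FGFR1, FGFR2, FGFR3, FGFR4 and IGF1R, by matching their symbols to the listed genes. All 10 were among the 46427 genes listed, and all 10 passed the filter on low counts, which left 17781 genes. Messenger RNA of SNU638, a human gastric cancer cell line in established use, was sequenced after plasmid vectors had been introduced. The control group carried the control vector and the YTHDF1 group carried a vector for YTHDF1, a reader protein of N6-methyladenosine in mRNA, with 2 biological replicates of each. All 4 libraries came from cells kept without serum for 24 h and then given interferon gamma (IFN-γ) at 10 ng/ml, so levels without IFN-γ were not measured. The labels give 8 h of IFN-γ, whereas a figure legend for these libraries gives 24 h. The design asks whether YTHDF1 overexpression changed transcript levels in 1 cell line, and no label says what sets replicate 1 apart from replicate 2.

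Receptor tyrosine kinases sit in the cell membrane, bind a growth factor outside the cell and phosphorylate tyrosines inside it, which recruits adaptors such as GRB2 and starts the RAS-ERK and PI3K-AKT pathways. MET binds hepatocyte growth factor, MST1R (RON) binds macrophage stimulating protein, EGFR binds EGF-like ligands, and ERBB2 (HER2) has no known ligand of its own and signals in pairs with the other ERBB receptors. ERBB3 binds neuregulins and has a weak kinase, FGFR1 to FGFR4 bind fibroblast growth factors, and IGF1R binds the insulin-like growth factors. MET, ERBB2 and FGFR2 are known to be amplified in some gastric cancers, and ERBB2 is a drug target in this disease.

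MET and EGFR had the highest transcript levels of the 10, and both lie on chromosome 7. Their promoters are shown because these 2 genes were also the only 2 of the 10 called higher in the replicate 2 libraries. Each runs from 250 bases before to 50 bases after the annotated start, on the plus strand of GRCh38.p14 as RefSeq gives it, at chr7:116671946-116672245 for MET and chr7:55018767-55019066 for EGFR. Capitals mark the GC box, GGGCGG, a motif bound by SP1, read on either strand.
MET: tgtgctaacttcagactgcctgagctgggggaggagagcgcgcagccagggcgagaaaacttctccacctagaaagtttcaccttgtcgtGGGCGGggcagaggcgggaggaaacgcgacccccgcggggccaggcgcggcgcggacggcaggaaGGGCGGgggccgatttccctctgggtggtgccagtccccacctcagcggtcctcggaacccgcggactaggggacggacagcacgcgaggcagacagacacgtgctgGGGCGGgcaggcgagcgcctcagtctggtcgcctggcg
EGFR: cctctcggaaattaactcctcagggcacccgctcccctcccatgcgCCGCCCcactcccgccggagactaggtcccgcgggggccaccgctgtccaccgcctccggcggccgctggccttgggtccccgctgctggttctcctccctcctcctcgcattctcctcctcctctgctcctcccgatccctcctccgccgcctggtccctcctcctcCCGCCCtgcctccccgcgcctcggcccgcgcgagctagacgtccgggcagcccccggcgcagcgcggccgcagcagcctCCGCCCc
The MET promoter was 69.3% G and C and the EGFR promoter 75.3%, and each held 3 GC boxes. Of the other promoters used, FGFR2 held 5 GC boxes, FGFR3 8, FGFR4 7, MST1R 5, IGF1R 2 and ERBB2 0. GC boxes were thus not particular to MET and EGFR, since FGFR2 and FGFR3 were called lower in replicate 2. Of 27305 promoters of this length 44.6% held at least 1 GC box on either strand. The TATA box, TATAAA, was in neither the MET nor the EGFR promoter and in 12.0% of all promoters. These matches describe letters in the window and no binding was measured.

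Total counts were between 57398137 and 60864942 per library. The 2 libraries that share a replicate number were more alike than the 2 that share a vector. Across the 17781 genes tested, which are not independent replicates, log2 CPM (counts scaled to a common library size after TMM) correlated between the vectors at a Pearson r of 0.985 within replicate 1 and 0.983 within replicate 2, and between replicates at 0.885 in control and 0.888 in YTHDF1 cells. YTHDF1 itself stood at 82.2 and 80.3 CPM in control replicates 1 and 2 and at 16494 and 2628 CPM in YTHDF1 replicates 1 and 2. All 8 epithelial markers passed the filter, among them KRT8 at 2081 to 3818 CPM and EPCAM at 242 to 284 CPM. Their summed level was 4150 to 4344 CPM in replicate 1 and 6553 to 6866 CPM in replicate 2, but the markers did not move together. KRT8, KRT18 and KRT19 were higher in replicate 2, by log2 differences of 0.79, 1.01 and 0.36. EPCAM, CLDN7, CDH1 and ESRP1 were lower there, by -0.18, -0.34, -0.58 and -0.99. CLDN4, a tight junction gene, was lower too, at 55.0 and 56.6 CPM in replicate 1 and at 0.934 and 0.994 CPM in replicate 2. Of the markers of other cells, 3 of 7 fibroblast, 3 of 4 endothelial and 2 of 5 leukocyte markers were tested. Their summed levels were 6.58 to 11.8 CPM (mostly COL1A1, with COL1A2 and PDGFRA at 0), 0.232 to 0.934 CPM and 0.547 to 1.06 CPM (LST1 at 0). Markers of a mesenchymal state summed to 26.3 and 27.5 CPM in replicate 1 and to 32.8 and 33.3 CPM in replicate 2, with CDH2 at 0. Of these, VIM and ZEB1 were higher in replicate 2 (log2 differences 0.56 and 0.53) and FN1 was lower (-1.58). The part of these markers in the results was not tested. In bulk RNA, fewer cells that express a gene and less RNA of it per cell cannot be told apart. The labels call the libraries biological replicates without naming separate cultures, so p-values measure only the spread between these libraries.

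MET was the most abundant receptor tyrosine kinase transcript in every library. Levels were compared between genes as CPM per kilobase (CPM divided by the length of the longest transcript listed for the gene). MET stood at 122 and 203 CPM per kilobase in control replicates 1 and 2 and at 130 and 198 CPM per kilobase in YTHDF1 replicates 1 and 2. It ranked between 216 and 381 of the 25912 genes with a length, and by CPM without a length between 60 and 104 of 46427. MET took 26.9% and 40.1% of the summed CPM per kilobase of 57 receptor kinases (the 10 and all of 48 others but DDR2, for which no length was found) in control cells (replicates 1 and 2), and in YTHDF1 cells 28.1% and 39.6%.

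EGFR was next by the mean of the 4 libraries, at 30.7 and 53.9 CPM per kilobase in control replicates 1 and 2 and at 30.3 and 53.3 CPM per kilobase in YTHDF1 replicates 1 and 2. MET was thus 3.71 to 4.28 times as abundant per kilobase as EGFR within a library, and no EGFR value overlapped a MET value. In both replicate 1 libraries DDR1 (49.1 and 47.9 CPM per kilobase) and EPHA2 (32.8 and 30.4 CPM per kilobase) were above EGFR. ERBB2 stood at 25.6, 32.9, 23.9 and 32.0 CPM per kilobase in the same order of libraries. EGFR was above ERBB2 within every library, but their ranges over the 4 libraries overlapped. Among the 57 receptor kinases by mean CPM per kilobase, MET was in place 1, EGFR in place 2 and ERBB2 in place 5, after AXL and DDR1.

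The middle of the order was held by FGFR4, MST1R and ERBB3. FGFR4 ran from 10.5 to 14.4 CPM per kilobase and MST1R from 9.66 to 11.2 CPM per kilobase, so these neighbours overlapped. ERBB3 ran from 7.88 to 8.78 CPM per kilobase, below every MST1R value. Their places among the 57 were 11, 12 and 14.

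At the low end, IGF1R ran from 2.44 to 3.28 CPM per kilobase, FGFR3 from 1.60 to 4.25, FGFR2 from 0.908 to 2.50 and FGFR1 from 0.0168 to 4.47 CPM per kilobase. These 4 overlapped one another, and all their values were below those of ERBB3. FGFR1 ranked 8893 and 8897 by CPM per kilobase in the 2 replicate 1 libraries and 15847 and 16003 in the 2 replicate 2 libraries. IGF1R, FGFR3, FGFR1 and FGFR2 took places 19, 20, 23 and 26 among the 57.

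**Figure D1:**
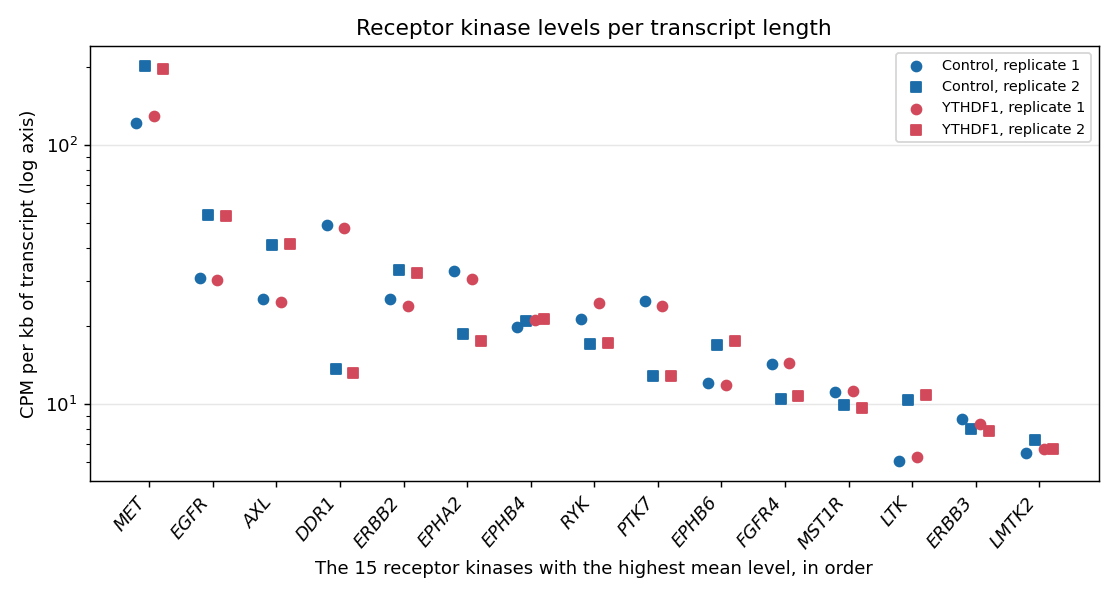
Level of the 15 most abundant receptor kinases by mean in each of the 4 libraries, in CPM per kilobase on a log axis, with 1 point a library. MET lies between 122 and 203 CPM per kilobase, above every other gene shown.

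Where the genes lie and what overlaps them bears on the counts, since the strand setting of the counting is not given in the sources used here. On GRCh38, MET lies at chr7:116672196-116798377 and EGFR at chr7:55019017-55211628, which the antisense gene EGFR-AS1 overlaps. ERBB2 lies at chr17:39688094-39728658 and ERBB3 at chr12:56080108-56103505. The overlaps given here come from an annotation whose gene extents differ from these RefSeq positions. In it ERBB2 overlaps PGAP3 and MIEN1 on the opposite strand, and ERBB3 shares 2175 bases with AC034102.2 on the same strand. In RefSeq PGAP3 ends at position 39688057, before ERBB2 begins. Reads in the overlaps with genes on the opposite strand could be given to either gene if strand was not used, and the same-strand reads of ERBB3 and AC034102.2 cannot be told apart by strand.

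MST1R lies at chr3:49887002-49903873, IGF1R at chr15:98648539-98964530, FGFR2 at chr10:121478330-121598458, FGFR3 at chr4:1793293-1808867 and FGFR4 at chr5:177086915-177098144. In the annotation used for overlaps, MST1R and IGF1R overlap antisense genes, and FGFR1 overlaps LETM2 on the opposite strand. On the same strand FGFR1 shares 1318 bases with RPS20P22 and 695 with AC087623.3. IGF1R shares 459 bases with AC118658.1 and 77 with MIR4714, and ERBB2 shares 67 with MIR4728. Reads in these same-strand overlaps cannot be told apart by strand either.

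Between the vectors, 0 of the 10 receptor kinases were called. For a call, the log2 difference had to reach 0.5 in either direction with p under 0.05 in the quasi-likelihood test of edgeR. Without adjustment 18 of 17781 genes, 0.101%, were called, and after adjustment by Benjamini and Hochberg 0 genes, 0%, were called. The values of all 10 kinases overlapped between the vectors, and 11.5% of all genes tested did not overlap. For all 10 the replicate 1 libraries lay apart from the replicate 2 libraries, which makes the vectors overlap. This overlap is thus no result about the vectors.

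MET was at 812 and 1344 CPM in control replicates 1 and 2 and at 860 and 1312 CPM in YTHDF1 replicates 1 and 2. The vectors overlapped and the replicates of each vector lay far apart, the control mean being 1078 ± 376 CPM (SD, n = 2) and the YTHDF1 mean 1086 ± 320 CPM (SD, n = 2). YTHDF1 minus control was 0.01 on the log2 scale (SE 0.36, 95% interval -1.03 to 1.06, quasi-likelihood adjusted p = 1.000), and 0.08 within replicate 1 and -0.03 within replicate 2. This model had no term for the replicate number. Its interval thus left room for a difference of 1 on the log2 scale in either direction, and the test does not show that the vectors were alike. With a block for the replicate number the interval was -0.08 to 0.12, though no label says what the numbers stand for.

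MST1R, the relative of MET, was at 50.4 and 44.9 CPM in control replicates 1 and 2 and at 51.0 and 43.8 CPM in YTHDF1 replicates 1 and 2. Its vector difference was -0.01 on the log2 scale (95% interval -0.38 to 0.36). This interval was narrower than that of MET in the same model without a block, and went with replicates that lay closer together.

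The ERBB receptors gave vector differences near 0 as well. EGFR was at 302 and 530 CPM in control replicates 1 and 2 and at 298 and 524 CPM in YTHDF1 replicates 1 and 2, a log2 difference of -0.02 (95% interval -1.26 to 1.23). ERBB2 was at 123 and 158 CPM in control and at 114 and 153 CPM in YTHDF1 cells, in the same order, a log2 difference of -0.07 (95% interval -0.70 to 0.57). Within replicates 1 and 2 the ERBB2 difference was -0.10 and -0.04 on the log2 scale, and its unadjusted p was 0.776 by the quasi-likelihood test of edgeR. ERBB3 was at 52.0 and 47.3 CPM in control and at 49.6 and 46.6 CPM in YTHDF1 cells, a log2 difference of -0.04 (95% interval -0.33 to 0.24).

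Among the FGF receptors the replicates lay so far apart that the vector test, which had no term for the replicate number, could show little. Intervals with a block for the replicate number are given with the alternatives below. FGFR1 was at 26.1 and 0.123 CPM in control replicates 1 and 2 and at 26.4 and 0.0994 CPM in YTHDF1 replicates 1 and 2, and the 95% interval of its vector difference ran from -8.59 to 8.61 on the log2 scale. FGFR2 was at 9.96, 3.97, 10.9 and 4.67 CPM in the same order, with a log2 difference of 0.16 (95% interval -1.83 to 2.16). Within replicates 1 and 2 the FGFR2 difference was 0.14 and 0.24 on the log2 scale, and its unadjusted p by edgeR was 0.824. FGFR3 was at 17.7, 6.95, 18.3 and 6.89 CPM, a log2 difference of 0.03 (95% interval -2.07 to 2.13). FGFR4 was at 44.6, 32.8, 45.0 and 33.7 CPM, a log2 difference of 0.02 (95% interval -0.67 to 0.72). IGF1R was at 32.2 and 39.9 CPM in control and at 29.9 and 40.1 CPM in YTHDF1 cells, a log2 difference of -0.04 (95% interval -0.67 to 0.58).

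**Figure D2:**
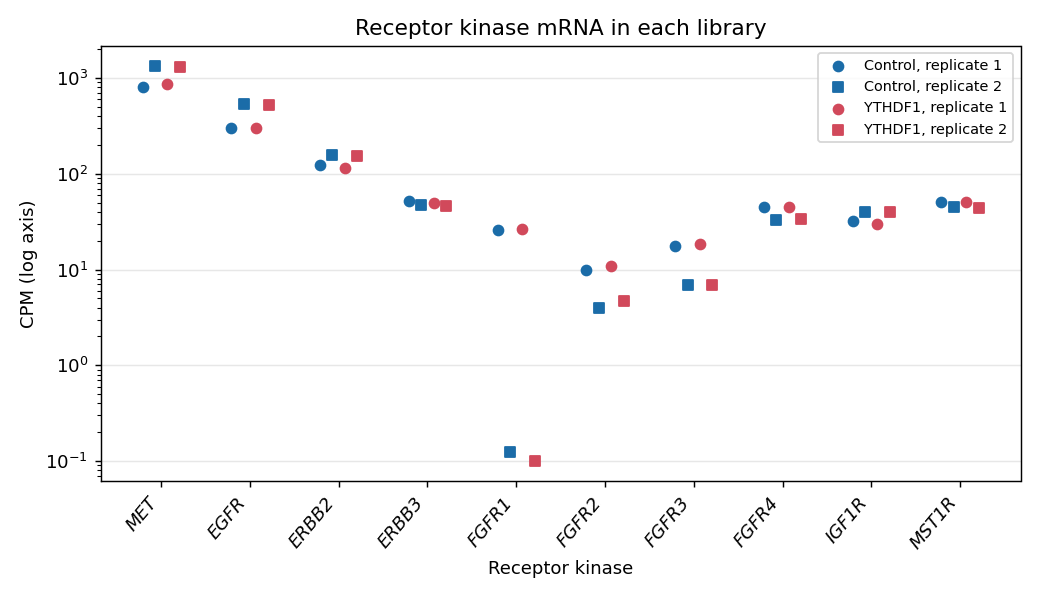
CPM of the 10 receptor kinases in the 4 libraries, on a log axis, with 1 point a library (colour for the vector, circles for replicate 1, squares for replicate 2). Points of the same replicate number lie together for each gene, as for MET at 812 and 860 CPM in replicate 1 and at 1344 and 1312 CPM in replicate 2.

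Between the replicate numbers, MET and EGFR were higher and FGFR1, FGFR2 and FGFR3 lower in replicate 2, in both vectors. This comparison set the 2 libraries numbered 2 against the 2 numbered 1 with the vector in the model. Of all genes tested 9.71% were called higher in replicate 2, against 2 of the 10 kinases, and 16.0% were called lower, against 3 of the 10. The libraries of the numbers did not overlap for any of the 10, as was so for 77.1% of all genes. The median size of the difference was 0.55 on the log2 scale over the 10 kinases and 0.31 over all genes tested, while between the vectors it was 0.03 and 0.07.

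MET averaged 836 CPM in replicate 1 and 1328 CPM in replicate 2, 1.59-fold higher in replicate 2 (log2 difference 0.67, SE 0.044, Benjamini-Hochberg adjusted p = 1.4e-06 in the quasi-likelihood test of edgeR). The log2 difference was 0.73 in control and 0.61 in YTHDF1 cells. MST1R averaged 50.7 and 44.4 CPM and was lower in replicate 2 by a log2 difference of -0.19 (SE 0.054, edgeR adjusted p = 0.0144), short of the 0.5 asked for a call.

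EGFR averaged 300 CPM in replicate 1 and 527 CPM in replicate 2, a log2 difference of 0.81 (SE 0.04, edgeR adjusted p = 1.93e-07), and the difference was 0.81 in each vector. ERBB2 had the same direction at a smaller size, with 119 and 156 CPM and a log2 difference of 0.39 (SE 0.045, edgeR adjusted p = 6.6e-05). ERBB3 was at 50.8 and 47.0 CPM, a log2 difference of -0.11 (SE 0.054, edgeR adjusted p = 0.106). ERBB2 and ERBB3 were thus not called, the first for its size and the second for both its size and its p.

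FGFR1 had the largest difference of the 10. It had 1554 counts in each replicate 1 library, 7 counts in control replicate 2 and 6 counts in YTHDF1 replicate 2. The ratio of replicate 1 to replicate 2 was 212 in control (95% exact binomial interval 103 to 528) and 266 in YTHDF1 cells (122 to 725), and these intervals cover counting error only. The fitted log2 difference was -7.86 (SE 0.16, edgeR adjusted p = 4.94e-10).

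FGFR2 averaged 10.4 CPM in replicate 1 and 4.32 CPM in replicate 2, a log2 difference of -1.28 (SE 0.12, edgeR adjusted p = 1.47e-05). FGFR3 averaged 18.0 and 6.92 CPM, a log2 difference of -1.38 (SE 0.089, edgeR adjusted p = 1.07e-06). Both were lower in each vector, with log2 differences of -1.33 (control) and -1.23 (YTHDF1) for FGFR2 and -1.35 and -1.40 for FGFR3. FGFR4 was lower at a size short of a call, with 44.8 and 33.2 CPM and a log2 difference of -0.43 (SE 0.058, edgeR adjusted p = 0.000180). IGF1R went the other way, with 31.0 and 40.0 CPM and a log2 difference of 0.37 (SE 0.062, edgeR adjusted p = 0.000830).

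**Figure D3:**
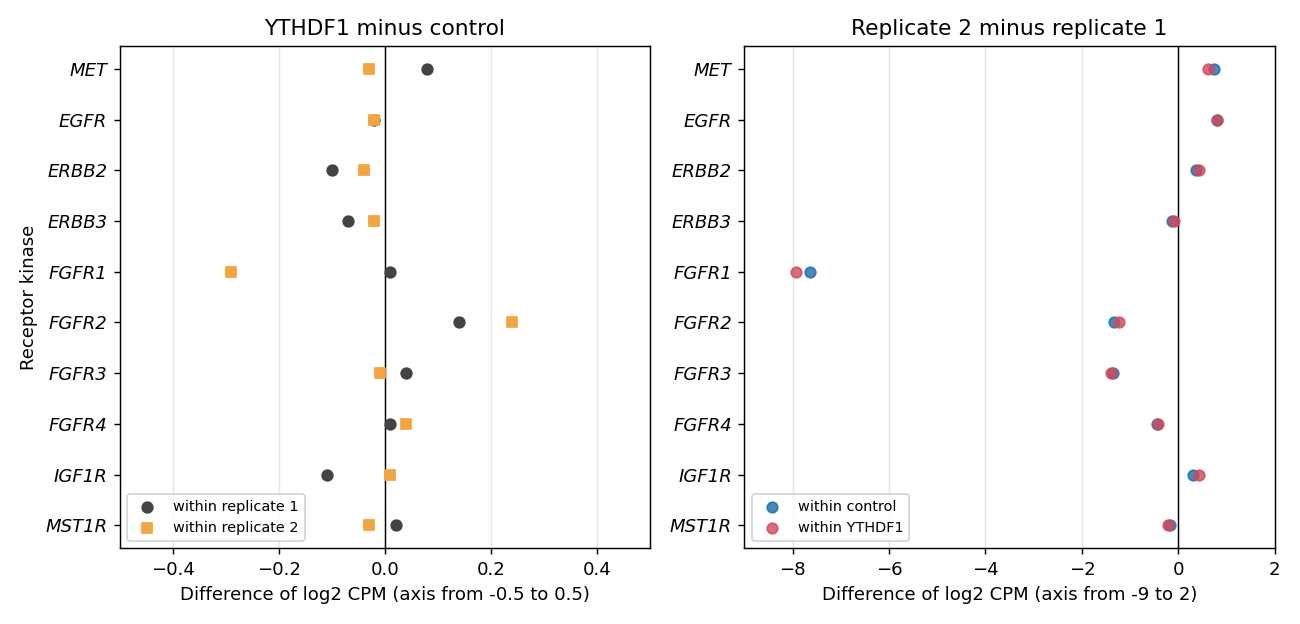
Differences of log2 CPM between single libraries for the 10 receptor kinases. The left panel gives YTHDF1 minus control within each replicate number, where MET lies at 0.08 and -0.03, and the right panel, on a wider axis, gives replicate 2 minus replicate 1 within each vector, where MET lies at 0.73 and 0.61 and FGFR1 at -7.63 and -7.94.

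Of the 48 other receptor kinases, 33 were tested and 0 were called between the vectors. Between the numbers 5 were higher and 16 lower in replicate 2 and 12 were not called, where 9.71% of all genes were called higher and 16.0% lower, with a median log2 difference of -0.56 against -0.01 over all genes. AXL, a receptor for GAS6, was at 120 and 195 CPM in control replicates 1 and 2 and at 118 and 198 CPM in YTHDF1 replicates 1 and 2, higher in replicate 2 by 0.72. DDR1, a collagen receptor, was at 191, 53.5, 187 and 51.3 CPM in the same order, lower by a log2 difference of -1.85. By CPM per kilobase DDR1, above EGFR in replicate 1, lay below ERBB2 in replicate 2 (13.7 and 13.2). EPHA2, an ephrin receptor, was at 130, 73.6, 121 and 69.8 CPM, a log2 difference of -0.80.

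ROR2, a receptor for WNT5A, was at 11.0 and 11.9 CPM in replicate 1 and at 0 in both replicate 2 libraries, at least 217-fold lower against the floor of 3 counts a library. RET, the receptor for GDNF family ligands, was at 2.30 and 2.14 CPM and at 0, at least 42.0-fold lower. TEK, the angiopoietin receptor, was at 0.488 and 0.221 CPM and at 0, at least 6.70-fold lower. Each bound sets the mean of replicate 1 against the floor, and the lower TEK value alone would give a smaller bound. ROR2, RET and TEK, as well as KDR and FLT3, passed the filter on low counts only through replicate 1, and all count among those called lower. Of the kinases higher in replicate 2, EPHA4 was at 5.13, 18.4, 5.71 and 16.7 CPM, LTK at 18.3, 31.6, 19.0 and 33.3 CPM and ERBB4 at 0.0673, 0.406, 0.204 and 0.480 CPM.

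Of 33 ligand genes for the families of the 10 receptors, 18 were tested and 0 were called between the vectors. Between the numbers 1 was higher and 10 were lower in replicate 2 and 7 were not called, where 9.71% of all genes were called higher and 16.0% lower. Their median log2 difference was -1.05. Ligands over 5 CPM in at least 1 library numbered 10. Epiregulin (EREG), an EGFR ligand, was at 520 and 230 CPM in control replicates 1 and 2 and at 679 and 244 CPM in YTHDF1 replicates 1 and 2, a log2 difference of -1.33 (SE 0.064, edgeR adjusted p = 1.61e-07). Amphiregulin (AREG), another EGFR ligand, was at 143, 81.6, 165 and 76.5 CPM in the same order, a log2 difference of -0.96. Neuregulin 1 (NRG1), which binds ERBB3, was the 1 ligand higher in replicate 2, at 69.0, 134, 65.6 and 135 CPM, a log2 difference of 1.00 (SE 0.048, edgeR adjusted p = 1.47e-07). EGFR was thus higher, and the EGFR ligands EREG, AREG and HBEGF (7.52, 3.28, 6.67 and 3.15 CPM) lower, in the same libraries.

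FGF2 (basic FGF) was at 14.9 and 17.3 CPM in replicate 1 and at 5 and 0 counts in control and YTHDF1 replicate 2. FGF19, a hormone that acts through FGFR4, was at 11.8 and 14.0 CPM in replicate 1 and at 6 and 0 counts in replicate 2. IGF2, a ligand of IGF1R, was at 13.2 and 14.5 CPM in replicate 1 and at 11 and 5 counts in replicate 2. These 3 were named for having the lowest log2 differences of the ligands called, so their low values in replicate 2 follow from that choice. FGFR1 was near 0 in the same 2 libraries, and a link between them was not tested. The ligands above were named by their level or by their replicate difference, and those named next were chosen after their values were seen. HGF, the ligand of MET, was at 0.151, 0, 0 and 0.0994 CPM in control replicates 1 and 2 and YTHDF1 replicates 1 and 2 and was not tested, so MET was abundant where its ligand was near 0. MST1, the ligand of MST1R, was at 2.86, 2.22, 2.53 and 2.88 CPM, and TGFA, an EGFR ligand, at 37.6, 14.1, 38.6 and 12.4 CPM.

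**Figure D4:**
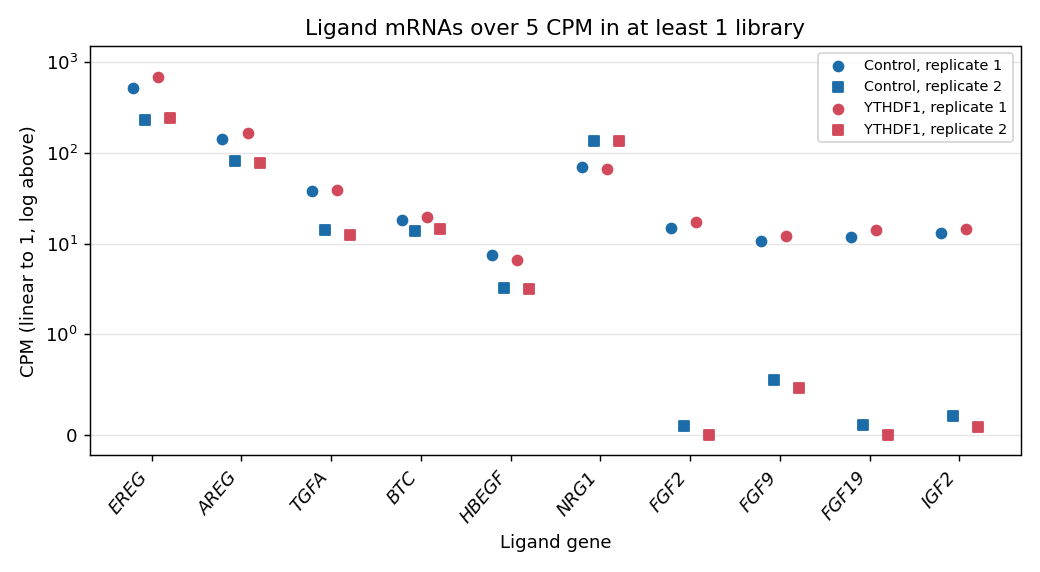
CPM of the 10 ligands above 5 CPM in at least 1 library, on an axis that is linear up to 1 CPM and logarithmic above, with 1 point a library. EREG lies highest, at 230 to 679 CPM, and NRG1 is the ligand with higher values in replicate 2, at 134 and 135 CPM.

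Of 10 genes that process ligands 9 were tested, with 0 called between the vectors. In replicate 2, where 9.71% of all genes were called higher and 16.0% lower, 0 of them were higher and 1 was lower. That gene was ADAM17, the sheddase of EGFR ligands, at 66.6, 50.1, 73.8 and 47.9 CPM in control replicates 1 and 2 and YTHDF1 replicates 1 and 2, a log2 difference of -0.52. SPINT2, an inhibitor of HGF activation, was at 230 to 275 CPM, and PLAU and ST14, proteases that can activate HGF, were at 134 to 189 and 144 to 161 CPM.

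Of 19 co-receptors and adaptors 17 were tested, with 0 called between the vectors, 1 higher and 2 lower in replicate 2. The shares over all genes were 9.71% higher and 16.0% lower. GAB2, a docking adaptor, was higher in replicate 2, at 16.5, 29.9, 16.4 and 29.3 CPM in control replicates 1 and 2 and YTHDF1 replicates 1 and 2. IRS2, the substrate of the insulin and IGF1 receptors, was at 9.60 and 8.10 CPM in replicate 1 and at 0 and 3 counts in replicate 2. GRB7, an adaptor that binds ERBB2, was at 21.5, 9.33, 21.6 and 9.79 CPM, a log2 difference of -1.17. The most abundant of this list, GRB2, SHC1 and CD44, were at 261 to 298, 186 to 230 and 288 to 328 CPM and were not called.

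All 20 negative regulators were tested, with 0 called between the vectors, and 3 higher, 4 lower and 13 not called in replicate 2, near the shares over all genes (9.71% higher and 16.0% lower). ERRFI1 (MIG6), an inhibitor of the EGFR kinase, was at 311 and 109 CPM in control replicates 1 and 2 and at 362 and 105 CPM in YTHDF1 replicates 1 and 2, a log2 difference of -1.66 (SE 0.063, edgeR adjusted p = 2.99e-08). DUSP5, an ERK phosphatase, was at 35.2 and 41.5 CPM in replicate 1 and at 5 and 3 counts in replicate 2. PTPRJ, a receptor phosphatase, was at 34.2, 15.5, 34.3 and 15.9 CPM. Higher in replicate 2 were DUSP4, a MAP kinase phosphatase (236, 399, 242 and 396 CPM), NF1, a RAS GTPase activator (127, 222, 129 and 226 CPM), and SPRY2, a feedback inhibitor (18.4, 37.1, 20.2 and 38.5 CPM). DUSP6 was at 132 to 146 CPM and was not called.

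In the RAS-ERK and PI3K core, all 21 genes were tested, with 0 called between the vectors, 2 higher and 2 lower in replicate 2 and a median log2 difference of -0.01. The shares over all genes were 9.71% higher and 16.0% lower. HRAS, a RAS GTPase, was higher in replicate 2, at 28.9 and 28.8 CPM in replicate 1 and at 45.3 and 50.6 CPM in replicate 2. Lower in replicate 2 were ARAF, at 24.9 and 25.5 against 11.1 and 8.55 CPM, and AKT1, at 109 and 109 against 74.8 and 71.7 CPM. STAT3, the most abundant, was at 416 to 517 CPM and was not called.

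None of the tested genes beside MET on chromosome 7 was called higher in replicate 2 as MET was. Of all genes tested 9.71% were called higher and 16.0% lower, and the neighbours are too few to set against these shares. Of the 5 nearest protein-coding genes on each side, 6 were tested between the replicate numbers. CAV1 and CAV2, which encode caveolins, were lower in replicate 2, at 158, 68.1, 160 and 69.9 CPM per kilobase and at 35.4, 10.3, 37.2 and 13.1 CPM per kilobase in control replicates 1 and 2 and YTHDF1 replicates 1 and 2. TES was lower too, by a log2 difference of -0.59, and MDFIC was at 1.46 and 1.31 CPM per kilobase in replicate 1 and at 0 in replicate 2. CAPZA2, an actin capping gene, was at 21.9 to 22.6 CPM per kilobase in all 4 libraries (log2 difference 0.00, edgeR adjusted p = 0.939), and ST7 was at 7.79 to 8.90 CPM per kilobase. TFEC, WNT2, ASZ1 and CFTR were not tested.

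**Figure D5:**
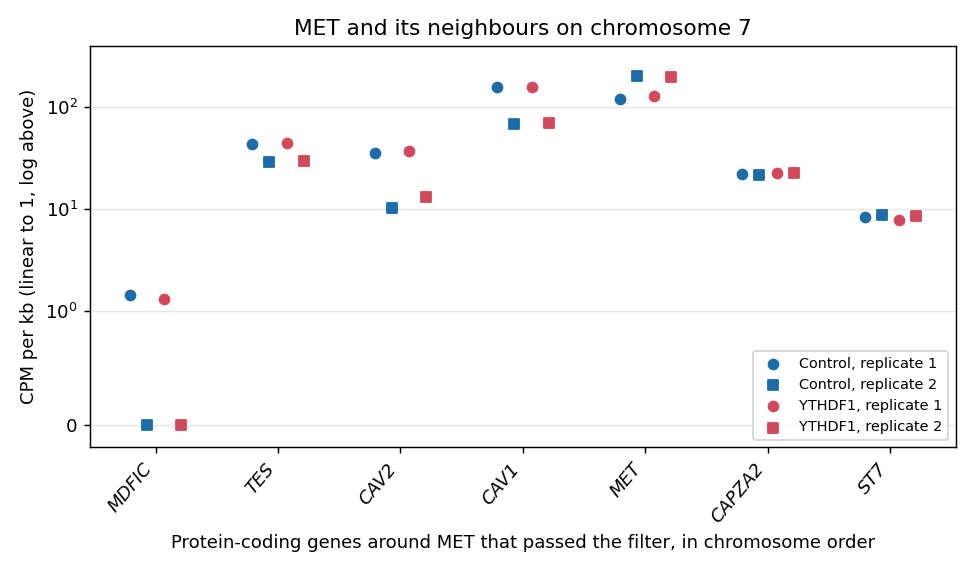
CPM per kilobase of MET and its tested neighbours on chromosome 7 in gene order, on an axis that is linear up to 1 and logarithmic above, with 1 point a library. MET is higher in replicate 2 (203 and 198 CPM per kilobase), while CAV1 is lower there (68.1 and 69.9).

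Beside ERBB2 on chromosome 17, STARD3 and MIEN1 had small differences in the direction of ERBB2. STARD3 was at 26.5, 31.2, 26.0 and 32.2 CPM per kilobase and MIEN1 at 34.4, 40.8, 32.9 and 41.0 CPM per kilobase in control replicates 1 and 2 and YTHDF1 replicates 1 and 2, log2 differences of 0.27 and 0.28 that were not called. PGAP3 was at 3.11 to 3.90 CPM per kilobase (log2 difference -0.26), and GRB7 went the other way from ERBB2 as given above. TCAP, IKZF3 and GSDMB had log2 differences of 0.54, -0.38 and 0.21, and PPP1R1B, PNMT and ZPBP2 were not tested.

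The profiles most like that of MET over the 4 libraries, among 9991 genes with a mean of at least 10 CPM, were those of DDX60L, ACAA2 and CD274. Likeness was the root mean square distance between log2 CPM profiles after each was centred on its mean, and it was 0.0030, 0.0128 and 0.0138. DDX60L was at 116, 191, 122 and 186 CPM in control replicates 1 and 2 and YTHDF1 replicates 1 and 2, ACAA2 at 15.1, 25.1, 16.3 and 24.3 CPM and CD274 (PD-L1) at 76.9, 131, 82.5 and 126 CPM. The 4 points of each profile share their libraries and fall into 2 pairs by replicate number.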

How the data were processed

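The authors deposited counts, whole numbers of reads per gene and library without normalization, from poly(A) libraries made with a stranded kit. The labels name Trimmomatic, HISAT2 and GRCh38, while their versions, the counting tool, its strand setting and the annotation are not given in the sources used here. Total counts per library were 57398137 to 60864942, and a count of 0 allows up to 3 counts. These floors and the counting intervals leave out all but counting error, because PCR copies of 1 molecule were not removed by molecular identifiers. The replicates of a group differed beyond sampling noise (chi-square per degree of freedom 136 in control and 167 in YTHDF1), and each library was counted as a sample.

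The analysis used edgeR 4.0.16 in R 4.3.3. Genes were kept by filterByExpr, library sizes were taken over the kept genes and scaled by TMM, and the quasi-likelihood test was fitted to all 17781 genes, with Benjamini-Hochberg adjustment over them. The vectors were compared with the vector alone in the model, and the replicate numbers with the vector and the number in the model. A call asked for a log2 difference of at least 0.5 and p under 0.05. The standard error was taken as the absolute log2 difference divided by the root of F, and log2 CPM of single libraries used a prior count of 0.5. CPM per kilobase used the longest GENCODE v29 transcript whose RefSeq accession is listed for the gene, which 25912 of 46427 genes had. This length is not the expressed isoform. Gene and promoter coordinates are those of RefSeq on GRCh38.p14, and promoters of ERBB3 and FGFR1 were not used.

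The 10 receptor kinases, the marker lists and the other lists were chosen with earlier results of these data known. Beside the 10, the text names from each list the genes called between vectors, the 3 highest and 3 lowest called between replicate numbers and the 3 most abundant by CPM per kilobase, the 3 genes most like MET, and the neighbours of MET and ERBB2; other names were chosen after their values were seen. Of the genes this rule names, 1 is not reported here. Alternatives were DESeq2 1.42.0 size factors and Wald test, no filter on low counts, library sizes without YTHDF1, a block for the replicate number, a model of the replicate number alone, ranks without a length or over protein-coding genes, and leaving out each library. The fits were tested on simulated data. Python 3.11.15 with matplotlib 3.10.9 drew the figures.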

Additional observations from a re-analysis of the deposited data

How the results depend on the processing

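No receptor kinase was called between the vectors under any alternative run. Genes called between the vectors at unadjusted p numbered 18, against 82 with no filter on low counts, 31 by the DESeq2 Wald test, 192 with the replicate block and 47 to 60 with 1 library left out, where the lone library is assumed to vary like the other group. At adjusted p they numbered 0, against 4 by the DESeq2 Wald test and 8 with the replicate block. The differences between replicate numbers correlated across genes at 0.875 between the vectors, but there are only 2 pairs and the labels give the numbers no shared origin. With the replicate block the vector difference was 0.02 for MET (95% interval -0.08 to 0.12), -0.07 for ERBB2 (-0.17 to 0.03) and 0.18 for FGFR2 (-0.08 to 0.44), with an edgeR adjusted p of 0.999 for each. In the same model it was 0.00 for FGFR1 (-0.24 to 0.25), 0.02 for FGFR3 (-0.18 to 0.22) and 0.03 for FGFR4 (-0.10 to 0.16). For EGFR it was -0.02 (-0.11 to 0.07), for ERBB3 -0.04 (-0.16 to 0.08), for IGF1R -0.05 (-0.19 to 0.09) and for MST1R -0.01 (-0.13 to 0.11). Of the genes named from the lists, FOS (log2 difference 0.65, edgeR adjusted p = 0.729) and EGR1 (0.51, edgeR adjusted p = 0.999) met the unadjusted rule between vectors with the replicate block and not without it.

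Leaving out 1 library unbalances the replicate numbers, and the vector difference then took both signs for all 10. It ran from -0.33 to 0.42 for MET, -0.12 to 0.09 for MST1R, -0.49 to 0.45 for EGFR, -0.30 to 0.13 for ERBB2, -0.11 to 0.03 for ERBB3, -7.01 to 6.72 for FGFR1, -0.57 to 0.98 for FGFR2, -0.84 to 0.86 for FGFR3, -0.20 to 0.26 for FGFR4 and -0.28 to 0.16 for IGF1R on the log2 scale, with no adjusted call.

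Between the replicate numbers 4578 genes were called, against 4068 to 4659 under the other edgeR settings and 3494 by the DESeq2 Wald test, and MET, EGFR, FGFR1, FGFR2 and FGFR3 were called in each. With 1 library left out that comparison has no residual degrees of freedom, so only values were computed. Ranks depend on the length: the mean percentile of IGF1R was 61.7 by CPM per kilobase and 87.1 by CPM, and that of MET 98.9 and 99.8.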

Other observations

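Target genes of ERK signalling gave values that differed by library. All 16 were tested, with 0 called between the vectors in the test without a replicate block, 3 higher and 5 lower in replicate 2. The shares over all genes were 9.71% higher and 16.0% lower. EGR1, an immediate early transcription factor, was at 187 and 57.3 CPM in control replicates 1 and 2 and at 351 and 58.9 CPM in YTHDF1 replicates 1 and 2. FOS, another immediate early gene, was at 18.3, 4.16, 35.5 and 4.42 CPM in the same order. YTHDF1 minus control was thus 0.91 and 0.96 on the log2 scale in replicate 1 and 0.04 and 0.09 in replicate 2, and this difference between the replicates was not tested. IER3 was lower in replicate 2, at 146, 27.9, 163 and 27.6 CPM, while FOSL1 was higher there, at 212, 310, 232 and 324 CPM. CCND1, which encodes cyclin D1, was at 668 to 834 CPM and MYC, a transcription factor gene, at 238 to 275 CPM, and neither was called.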
